A study of Mus musculus with 2 samples.

Results

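The 10 genes described here were Dusp4, Dusp5, Dusp6, Spry1, Spry2, Spry4, Spred1, Spred2, Etv4 and Etv5. They were taken by gene symbol as ERK feedback genes from the 32285 genes of the table, with no filter on their values. Earlier results of these data were known when they were chosen. The genes were measured in mouse bone marrow cells grown into myeloid-derived suppressor cells (MDSC), from female C57BL/6 mice aged 10 weeks, with no engineered allele. Both cultures received GM-CSF and IL6, each at 50 ng/mL, for 4 days, and 1 culture also received 1.5 µM of the BRAF inhibitor dabrafenib (DAB) while the control received its solvent (DMSO). Each condition was 1 single-cell RNA library (10x Genomics 5′ chemistry), and how many mice were pooled into a library is not stated in the sources at hand. With 1 library per condition there was no replicate and no test, and treatment and library cannot be told apart.

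ERK is the last kinase of the Ras, RAF and MEK cascade that growth factor and cytokine receptors switch on, and the genes described here are classical transcriptional outputs of that cascade. Dusp proteins take phosphate off ERK, Sprouty and Spred proteins restrain Ras and RAF upstream of it, and Etv4 and Etv5 are ETS transcription factors made in response to ERK activity. Because their RNA often follows ERK output, they are used as a readout of RAF and MEK inhibitors, and in cells with normal BRAF, RAF inhibitors are known to be able to raise ERK output rather than lower it.

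After removal of barcodes with over 10% mitochondrial UMIs and of called doublets, 9032 DMSO and 10476 DAB cells remained, with medians of 7523 and 9529.5 UMIs (unique molecular identifiers, each 1 counted RNA molecule). The libraries shared 121 barcode sequences among these cells. They differed in make-up as well as depth: chemokine-high granulocyte-like cells were 3.89% of DMSO and 16.4% of DAB cells, and immature monocyte-like cells 10.3% and 2.05%. Values for single classes are therefore given beside those for all cells. Of 27 clusters, which were made without the 10 genes, 16 were named from marker genes, and the other 11 held 42.5% of DMSO and 48.6% of DAB cells.

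RefSeq start sites (GRCm38.p6) were used for 7 of the 10 genes, and Dusp4, Spry4 and Etv4 were not searched. The 250 bases before each start were searched on both strands for 4 motifs. These were an AP-1 site (TGANTCA), a CRE (TGACGTCA), an ETS site (CCGGAAG) and the CArG box bound by serum response factor. The promoters of Dusp5 and Dusp6 are shown because these were the abundant genes with the higher level in DAB. Capitals mark CArG boxes.
Dusp5 (chr19:53528895-53529144, + strand): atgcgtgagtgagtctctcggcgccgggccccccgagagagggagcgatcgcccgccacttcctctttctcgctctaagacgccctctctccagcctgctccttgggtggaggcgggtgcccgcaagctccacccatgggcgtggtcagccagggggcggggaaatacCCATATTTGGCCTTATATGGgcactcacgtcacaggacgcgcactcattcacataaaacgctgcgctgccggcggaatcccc
Dusp6 (chr10:99262981-99263230, + strand): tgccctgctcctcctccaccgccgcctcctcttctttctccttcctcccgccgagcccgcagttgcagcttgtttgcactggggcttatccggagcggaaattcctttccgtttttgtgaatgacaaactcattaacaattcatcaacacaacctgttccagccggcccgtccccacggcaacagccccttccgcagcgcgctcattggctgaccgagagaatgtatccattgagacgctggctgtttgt
The Dusp5 window held a pair of CArG boxes side by side, beginning 82 and 72 bases before the start, a motif present in 1.47% of 32851 promoter windows of this length. No capitals appear in the Dusp6 window, and none of the 4 motifs was found in the windows of Spry1, Spry2, Spred1, Spred2 or Etv5 either. AP-1, CRE and ETS sites were present in 6.75%, 1.55% and 6.91% of all windows. The motifs do not overlap one another in these windows, and a match is a matter of letters, not of measured binding.

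The genes lay on 9 mouse chromosomes (GRCm38, GENCODE M21 annotation). The phosphatase genes were Dusp4 (chr8:34807297-34819894, + strand), Dusp5 (chr19:53529109-53542431, +) and Dusp6 (chr10:99263231-99267489, +). The Sprouty genes were Spry1 (chr3:37639947-37644598, +), Spry2 (chr14:105891947-105896819, -) and Spry4 (chr18:38586247-38601415, -). The Spred genes were Spred1 (chr2:117121374-117182279, +) and Spred2 (chr11:19924375-20024026, +). The ETS factors were Etv4 (chr11:101769742-101785371, -) and Etv5 (chr16:22381309-22439719, -). No other annotated gene overlapped any of them on the same strand. The spans of Spred1, Spred2 and Etv5 were 60.9, 99.7 and 58.4 kb, against 4.26 kb for Dusp6, and the counting of intron reads is not given in the sources used, so levels were compared between libraries and classes and not between genes.

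Levels are given in CPM, the UMIs of a gene per 1000000 UMIs summed over the cells in question. Over all cells, Dusp5, Dusp6 and Spry4 were higher in DAB and none of the 10 genes was lower. A gene was called higher or lower when its log2 ratio of DAB over DMSO was at least 0.5 in size and the 95% counting interval of the ratio left out 0. By this measure 3 of 10 genes were higher, where 13.6% of the 16363 genes with at least 20 UMIs were higher and 16.5% were lower. The median log2 ratio of the 10 genes was 0.42, against -0.02 for all genes tested. Intervals cover counting error only, and not the variation between cultures.

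**Figure D1:**
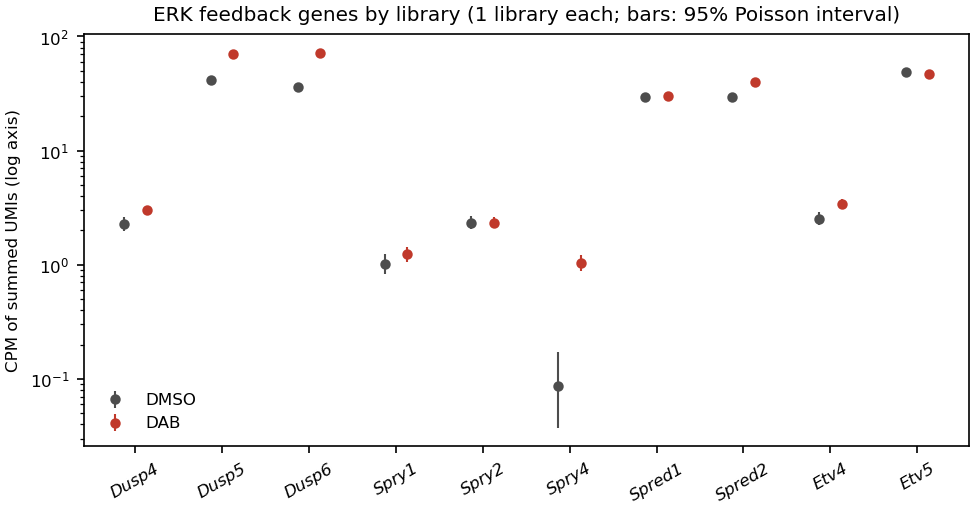
Level of each ERK feedback gene in the DMSO (grey) and DAB (red) library, as CPM of the UMIs summed over all cells, on a log axis, with 95% Poisson intervals. Dusp5, Dusp6 and Spry4 are the pairs past the log2 fold of 0.5. The intervals of Dusp4, Spred2 and Etv4 are also apart, with smaller differences. Spred1, Spry2 and Etv5 lie at nearly the same level in both libraries.

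Dusp6 encodes the cytoplasmic phosphatase that acts on ERK itself. It had 3307 UMIs in DMSO and 9983 in DAB, which is 35.9 CPM (95% interval 34.6 to 37.1) and 70.9 CPM (69.6 to 72.3). The log2 ratio was 0.98 (0.93 to 1.04), a 1.98-fold higher level in DAB. Of the 10 genes it had the widest rise across cell types. Among the 21 clusters that held 100 or more cells from both libraries, 19 had 20 or more Dusp6 UMIs, and the ratio was above 0 in all 19 and past the fold in 18. The exception was unnamed cluster L, led by Chil3 and Gal, with 48.1 CPM in DMSO and 50.05 CPM in DAB.

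In mature PMN-like cells, a class named from markers such as Csf3r and Mmp9, Dusp6 rose from 86.7 to 191 CPM (log2 ratio 1.14, 0.97 to 1.31). This was the class with the highest Dusp6 level in both libraries, apart from the next class by its interval. It was made of clusters A, R and Y, and A held 1065 of 1192 DMSO but 717 of 1284 DAB cells. Unnamed cluster B, whose leading genes included Mmp9 and Csf3r, was not part of this class, with 4 of 9 markers raised. Within A the log2 ratio of Dusp6 was 1.10 (0.90 to 1.31) and within R it was 0.93 (0.49 to 1.38). In intermediate granulocyte-like cells, marked by genes such as Ltf, Camp and Ly6g, it rose from 38.6 to 89.7 CPM (log2 ratio 1.22). That class drew on different clusters in the libraries. Of its DMSO cells 860 of 1496 were in cluster G, led by Camp and Ltf. Of its DAB cells 758 of 956 were in cluster C, led by Retnlg and Ly6g. In DMSO alone Dusp6 was at 21.1 CPM in G and 65.3 CPM in C. Within C the Dusp6 log2 ratio was 0.67 (0.47 to 0.87) and within G it was 1.26 (0.91 to 1.60), so it was higher within each cluster.

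Chemokine-high granulocyte-like cells, marked by Ccl3, Ccl4 and Cxcl2, rose from 53.3 to 92.7 CPM of Dusp6 (log2 ratio 0.80). The ratio was 0.69, 0.70 and 1.46 in their clusters J, M and O. The 5 markers of this class were all chemokine genes, so the word granulocyte in its name rests on no granulocyte marker. Immature monocyte-like cells, marked by Fn1, F13a1 and Mmp12, went from 27.8 to 58.5 CPM (log2 ratio 1.07). This class had 934 DMSO and 215 DAB cells and was not found when the libraries were clustered without alignment. Mature monocyte-like cells, whose cluster was led by MHC class II genes and Ccl17, went from 14.4 to 23.0 CPM (log2 ratio 0.67). The markers of this class were MHC class II presentation genes and Cd209a, so the word monocyte in its name rests on no other marker. Dusp6 was thus higher in all 5 classes with 200 or more cells from both libraries. In smaller classes, macrophage-like cells went from 46.3 to 80.7 CPM and basophil or mast cell-like cells from 20.4 (9.78 to 37.5) to 89.8 CPM (71.8 to 111).

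Activated dendritic cell-like cells, marked by Ccr7 and Fscn1, held almost no Dusp6, with 4 DMSO and 5 DAB UMIs or 1.50 and 2.85 CPM. Free RNA in the droplets, estimated from granulocyte genes in B cell-like cells at 2.54% of DMSO and 3.25% of DAB UMIs, would give 0.91 and 2.31 CPM of Dusp6, inside the intervals of both dendritic values (0.41 to 3.83 and 0.93 to 6.65). The Dusp6 level of these cells was thus not separable from background.

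Dusp5 encodes the nuclear phosphatase that is specific for ERK. It had 3813 UMIs in DMSO, or 41.3 CPM (40.05 to 42.7), and 9949 in DAB, or 70.7 CPM (69.3 to 72.1), giving a log2 ratio of 0.77 (0.72 to 0.83). The class with the highest Dusp5 level was not the one with the highest Dusp6 level. Activated dendritic cell-like cells had the highest Dusp5 level in both libraries, 222 CPM (205 to 241) in DMSO and 326 CPM (300 to 354) in DAB, and were followed by mature monocyte-like and then mature PMN-like cells. Over the 48 sums of 24 clusters in each library, the Pearson correlation of log2(CPM + 10) between Dusp5 and Dusp6 was 0.05, as a description of points that share 2 libraries and differ in depth.

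In mature monocyte-like cells, Dusp5 rose from 67.9 to 132 CPM (log2 ratio 0.96, 0.84 to 1.09). In immature monocyte-like cells it rose from 16.2 to 36.2 CPM (log2 ratio 1.17, 0.86 to 1.47). In mature PMN-like cells it rose from 55.5 to 115 CPM (log2 ratio 1.05), but the ratio was 0.30 without alignment of the libraries and 0.31 with finer clusters, neither past the fold, while within clusters A and R it was 1.18 and 0.64. Unlike Dusp6, it did not pass the fold in intermediate granulocyte-like cells, with 35.0 and 42.6 CPM (log2 ratio 0.28, 0.08 to 0.48), nor did it in the chemokine-high granulocyte-like class, with 42.4 and 43.9 CPM (log2 ratio 0.05, -0.28 to 0.39). Within the intermediate class its ratio was -0.27 in cluster C and 0.58 in cluster G. Across clusters, Dusp5 was higher in 14 of 21, lower in 0 and between the limits in 7.

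Dusp4, another nuclear phosphatase of the family that acts on ERK and related kinases, had 210 UMIs in DMSO and 422 in DAB. The levels were 2.28 CPM (1.98 to 2.61) and 2.999 CPM (2.72 to 3.30), and the log2 ratio of 0.40 (0.15 to 0.64) did not pass the fold. Its UMIs were unevenly spread over cell types. B cell-like cells were 1.52% of DMSO cells and held 38.1% of the Dusp4 UMIs of that library, at 119 CPM (94.05 to 148), where no other class exceeded 9.36 CPM.

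In B cell-like cells Dusp4 was lower in DAB, at 52.3 CPM (39.3 to 68.3), a log2 ratio of -1.18 (-1.71 to -0.66) on 80 and 54 UMIs. In 3 of the myeloid classes it was higher. Mature PMN-like cells had 13 UMIs in DMSO and 45 in DAB, or 2.68 and 9.39 CPM (log2 ratio 1.81, 0.89 to 2.82), and immature monocyte-like cells had 12 and 11 UMIs, or 0.70 and 3.02 CPM (log2 ratio 2.11, 0.79 to 3.42). The former ratio was 0.50 without alignment of the libraries and 0.52 with finer clusters, and the latter 0.72 with coarser clusters. Chemokine-high granulocyte-like cells had 6.13 and 10.9 CPM (log2 ratio 0.83, 0.01 to 1.78), but their clusters differed. The ratio was 2.48 (0.88 to 4.79) in J, 0.55 (-0.79 to 2.24) in M and -0.75 (-2.15 to 0.99) in O, which held 36 of 351 DMSO and 443 of 1722 DAB cells of the class. Without alignment or with finer clusters the class was not past the fold. With B cell-like cells left out, a choice made after the values were seen, Dusp4 had 130 and 368 UMIs and a log2 ratio of 0.89 (0.60 to 1.19), so that 4 of 10 genes were higher against 13.5% of all genes.

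**Figure D2:**
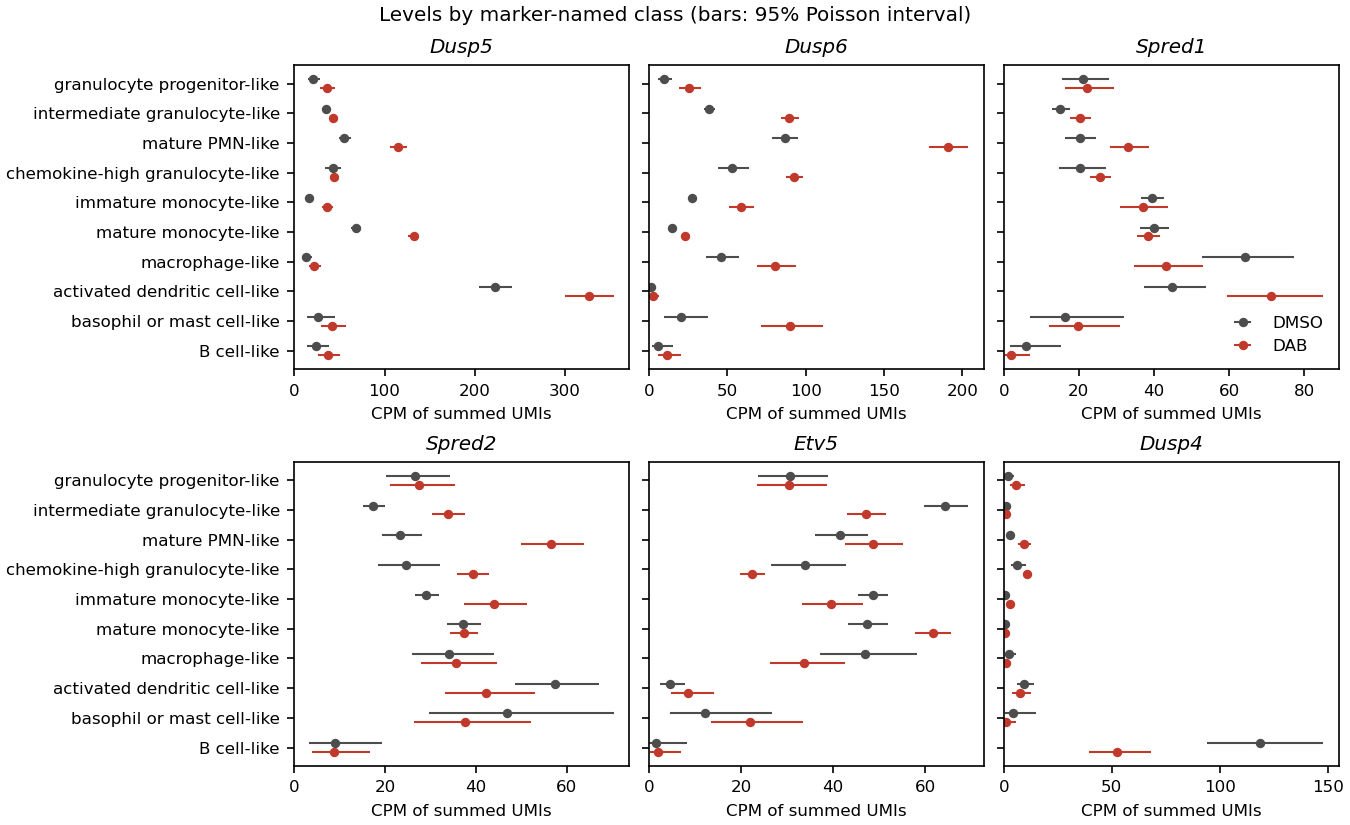
Levels of 6 ERK feedback genes in the 10 marker-named cell classes with at least 50 cells per library, as CPM of UMIs summed over the class (linear axes from 0) with 95% Poisson intervals, DMSO in grey and DAB in red. Dusp6 peaks in mature PMN-like cells, Dusp5 in activated dendritic cell-like cells and Dusp4 in B cell-like cells, and the Dusp6 points for DAB lie to the right in every class.

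Sprouty proteins are membrane-associated inhibitors of receptor signalling to Ras and RAF, and all 3 genes were sparse in these cells. Spry4 had 8 UMIs in 8 DMSO cells and 147 UMIs in 139 DAB cells, or 0.087 CPM (0.037 to 0.17) and 1.04 CPM (0.88 to 1.23). This was a 12.04-fold higher level, with a log2 ratio of 3.59 (2.57 to 4.83), the largest of the 10 genes, and of 2.34 on the few UMIs left after thinning all cells to 1500 UMIs. No DMSO cell had more than 1 Spry4 UMI and no DAB cell more than 4. Even in DAB, 1.33% of cells had a Spry4 UMI, against 0.0886% in DMSO, before any correction for depth.

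The DAB Spry4 UMIs came from several cell types. Unnamed clusters held 90 of the 147 and 3 of the 8 in DMSO. Mature monocyte-like cells had 2 and 23 UMIs, which is 0.19 CPM (0.023 to 0.70) and 1.47 CPM (0.93 to 2.21), and the log2 ratio was 2.93 (0.91 to 6.06). Intermediate granulocyte-like cells had 0 and 15, a 5.25-fold higher level if the DMSO class is set to a floor of 3 counts. The log2 interval of this ratio began at 1.91, and with under 20 UMIs it was not counted. Mature PMN-like cells had 0 Spry4 UMIs in both libraries, where the interval of a count of 0 reaches 0.76 CPM in DMSO and 0.77 CPM in DAB. B cell-like cells had 0 as well, with intervals up to 5.47 and 3.58 CPM.

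Spry1 had 94 and 174 UMIs, or 1.02 CPM (0.82 to 1.25) in DMSO and 1.24 CPM (1.06 to 1.43) in DAB, with a log2 ratio of 0.28 (-0.09 to 0.66). Granulocyte progenitor-like cells, marked by Elane and Mpo, had 0 Spry1 UMIs in DMSO and 12 in DAB, 4.01-fold higher against the same floor of 3 counts. The log2 interval began at 1.48, and with under 20 UMIs this ratio was not counted either. Mature PMN-like cells had none in either library. Spry2 had 216 and 329 UMIs and 2.34 CPM in both libraries, with a log2 ratio of -0.0027 (-0.25 to 0.25), an interval that leaves out any change past the fold. It was the member with the least difference between the libraries, and in cluster C alone, among the 10 clusters with 20 or more UMIs, it was lower (3.92 and 1.17 CPM on 17 and 9 UMIs, log2 ratio -1.74, -3.09 to -0.50).

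Spred proteins bring neurofibromin, a Ras GTPase activating protein, to the membrane. Spred2 had 2702 and 5570 UMIs, or 29.3 CPM (28.2 to 30.4) in DMSO and 39.6 CPM (38.5 to 40.6) in DAB. Its log2 ratio over all cells was 0.43 (0.37 to 0.50), below the fold, but 0.71 when every cell counted equally, where summed UMIs give more weight to cells with many UMIs. The larger ratios were in 3 classes named as granulocytes, while granulocyte progenitor-like cells had 26.6 and 27.6 CPM (log2 ratio 0.05). Mature PMN-like cells went from 23.3 to 56.5 CPM (log2 ratio 1.28, 0.95 to 1.61), intermediate granulocyte-like cells from 17.4 to 33.8 CPM (0.96) and the chemokine-high class from 24.5 to 39.3 CPM (0.68). The first of these was 0.61 with finer clusters.

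Spred2 was also higher in immature monocyte-like cells, with 29.1 and 43.9 CPM (log2 ratio 0.59, 0.33 to 0.85). In mature monocyte-like cells it stood at 37.2 CPM in both libraries, a log2 ratio of 0.0035 (-0.18 to 0.19). The rank of the classes therefore differed, with mature PMN-like cells the eighth of 10 classes in DMSO and the first in DAB, although most neighbours in these orders had overlapping intervals. By cluster, Spred2 was higher in 12 of 20 and lower in 0.

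Spred1 had 2728 and 4250 UMIs, or 29.6 CPM (28.5 to 30.7) and 30.2 CPM (29.3 to 31.1), with a log2 ratio of 0.03 (-0.04 to 0.10). Beneath that near equality a few classes passed the fold. It rose in mature PMN-like cells from 20.2 to 33.2 CPM (log2 ratio 0.71, 0.34 to 1.09), a value that became 0.02 with finer clusters. It also rose in activated dendritic cell-like cells, from 44.9 to 71.3 CPM (log2 ratio 0.67, 0.29 to 1.04), and fell in macrophage-like cells, marked by C1qa and C1qb, from 64.2 to 43.3 CPM (log2 ratio -0.57, -0.99 to -0.16). Mature and immature monocyte-like cells stayed between the limits, with log2 ratios of -0.06 and -0.10.

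Etv5 had about the same level in both libraries, below the fold as Spry2 and Spred1 were. It had 4507 UMIs in DMSO and 6556 in DAB, or 48.9 CPM (47.5 to 50.3) and 46.6 CPM (45.5 to 47.7), and the log2 ratio was -0.07 (-0.12 to -0.01). It was lower in the chemokine-high granulocyte-like class, at 33.9 and 22.3 CPM (log2 ratio -0.60, -0.98 to -0.21). In intermediate granulocyte-like cells the log2 ratio was -0.45 (-0.62 to -0.28), from 64.4 to 47.2 CPM. In cluster C alone it was -0.58, past the fold, and in cluster G it was -0.14 (-0.41 to 0.13). Mature monocyte-like cells had 47.4 and 61.7 CPM (log2 ratio 0.38, 0.22 to 0.54), which did not pass the fold.

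Across clusters, Etv5 was higher in 2, lower in 4 and between the limits in 14. It was near absent from B cell-like cells, with 1 and 2 UMIs, or 1.48 and 1.94 CPM, close to the 1.24 and 1.51 CPM that free RNA would give. The 4 clusters with lower Etv5 were C, M and the unnamed clusters B and S. Dusp6, which was above 0 in every cluster with 20 UMIs, had log2 ratios from 0.67 to 0.72 in these 4. The clusters with higher Etv5 were A (log2 ratio 0.53) and the unnamed cluster P (0.82), where Dusp6 had 1.10 and 1.85. Over the 48 cluster sums, the Pearson correlation of Etv5 with Dusp6 was 0.54, as a description of levels.

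Etv4 had 233 and 481 UMIs, or 2.53 CPM (2.21 to 2.87) and 3.42 CPM (3.12 to 3.74), a log2 ratio of 0.44 (0.21 to 0.67) that did not pass the fold and was -0.61 in cells thinned to 1500 UMIs, where 27 and 21 cells had a UMI. The classes named as monocytes differed in direction. In mature monocyte-like cells Etv4 rose from 2.42 to 7.95 CPM (25 and 124 UMIs, log2 ratio 1.72, 1.09 to 2.40), the highest level of any named class in DAB, with an interval (6.61 to 9.48) that overlapped that of basophil or mast cell-like cells (0.25 to 7.54). The ratio was 0.85 with coarser clusters and 0.72 without cell cycle regression. In immature monocyte-like cells it was lower, at 3.73 and 1.10 CPM (64 and 4 UMIs, log2 ratio -1.76, -3.68 to -0.34), but the ratio was 0.036 with coarser clusters and -0.38 without cell cycle regression, and the difference between the classes was not tested. Granulocyte classes held few UMIs, from 0 to 10 in each library, and B cell-like and activated dendritic cell-like cells held 0.

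**Figure D3:**
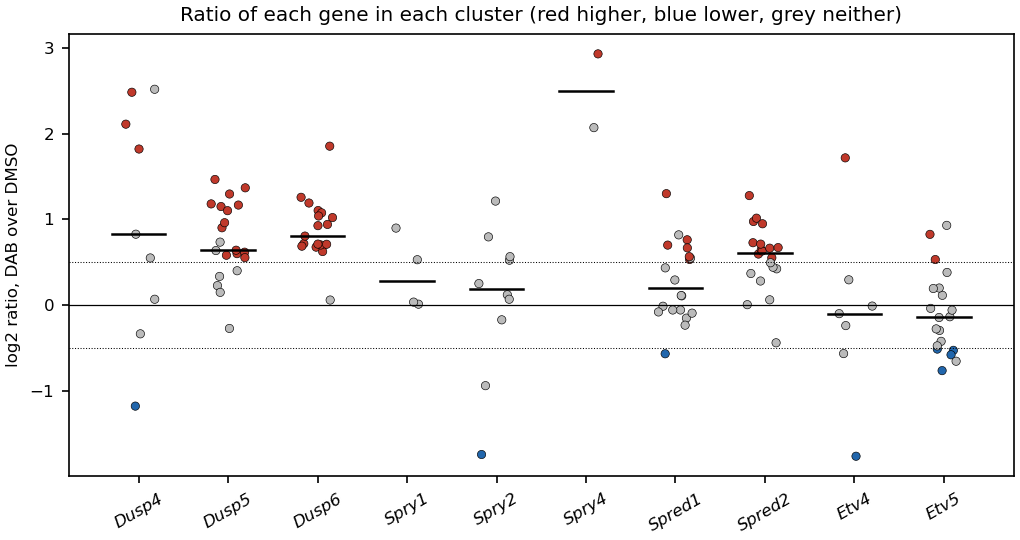
Log2 ratio of DAB over DMSO for each gene in each cluster that held 100 or more cells from both libraries and 20 or more UMIs of the gene, with a black bar at the median over clusters and dotted lines at the fold of 0.5 in either direction. Dusp6 lies above 0 in all 19 clusters, Spred2 in 19 of 20, and Etv5 in 7 of 20, while single clusters stand far out for Etv4, Spry2 and Dusp4.

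Counted by class, the genes that passed the fold can be set against all genes of the same class. In mature PMN-like cells 5 of 7 genes with at least 20 UMIs were higher and 0 lower, where 21.4% of all genes were higher and 8.64% lower. The count was 2, Dusp6 and Spred2, both without alignment of the libraries and with finer clusters. The share of all genes is not given for these clusterings. Unnamed cluster B, led by Fpr1 and Mmp9, was not in this class. There Dusp6 was higher (log2 ratio 0.72) and Etv5 lower (-0.53). Dusp5 (0.40), Spred1 (0.43), Spred2 (0.42) and Spry2 (-0.94) were not called in B. In intermediate granulocyte-like cells 2 of 6 were higher and 0 lower, against 24.3% and 12.9%. The chemokine-high granulocyte-like class had 3 of 7 higher and 1 lower, against 10.3% and 11.5%. These classes differ in how far all genes shifted, with a median log2 ratio over all genes of 0.17, 0.13 and 0.02.

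In immature monocyte-like cells 4 of 9 genes were higher and 1 lower, against 9.03% and 18.0% of all genes, whose median log2 ratio was -0.13. In mature monocyte-like cells 4 of 8 were higher and 0 lower, against 15.2% and 19.6%, with a median of -0.02. Genes higher in DAB thus made up 18 of the 37 pairs of gene and class, and lower ones 2, Etv5 in chemokine-high granulocyte-like cells and Etv4 in immature monocyte-like cells. Scaling by the median of ratios added 2 lower pairs, both in intermediate granulocyte-like cells, Etv5 at -0.57 and Spry2 at -1.19. The higher pairs were 14 with finer clusters, and 11 in place of 14 in the 4 classes found without alignment. The share of all genes is not given for these alternatives, so their counts have no background beside them. The pairs also repeat genes, with Dusp6 higher in each class. Genes with under 20 UMIs in a class, from 1 to 4 per class, are not in these counts.

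Shares of cells with a UMI were compared after each cell was thinned to 1500 UMIs. Shallower cells, 436 in DMSO and 289 in DAB, were left out. Dusp6 was then detected in 7.38% of the DMSO cells (interval 6.83% to 7.95%) and in 13.3% of the DAB cells (interval 12.7% to 14.0%), and in 26.3% and 50.0% without thinning. The B cell-like cells, with medians of 4052 and 4937.5 UMIs before thinning, gave 1.57% and 2.29% for Dusp6, and their 5.93 and 11.6 CPM lay above the free RNA estimate. The activated dendritic cell-like cells, with medians of 16848 and 14727 UMIs, gave 0 of 157 and 0 of 105, with intervals up to 2.32% and 3.45%. Dusp5 was detected in 5.92% (5.43% to 6.44%) and 9.77% (9.20% to 10.4%), with 3.94% and 6.86% in B cell-like cells, and in 23.5% and 39.3% of all cells without thinning. Spred2 was detected in 4.21% (3.80% to 4.66%) and 6.39% (5.92% to 6.88%), with 1.57% and 1.71% in B cell-like cells, and in 21.3% and 34.5% without thinning.

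For the remaining 7 genes the intervals overlapped at 1500 UMIs, and Etv5 was at 6.88% in DMSO and 6.03% in DAB. How many of all genes had intervals apart is not given, so these counts of members have no background beside them. At 3000 UMIs those of a further pair were apart, Spry4 with 0.027% (0.0033% to 0.097%) and 0.20% (0.12% to 0.32%) and Etv5 with 13.4% (12.7% to 14.2%) and 11.7% (11.1% to 12.4%). At 1500 UMIs the Dusp6 share rose from 14.4% to 25.8% in mature PMN-like cells and from 6.20% to 13.4% in intermediate granulocyte-like cells. In mature monocyte-like cells it was 2.40% and 2.30%, on 12 cells with a UMI in each library, and in immature monocyte-like cells 5.89% and 5.14%, on 55 and 11 cells. The higher CPM of both monocyte classes thus did not appear as a higher share at 1500 UMIs. Thinned to 3000 UMIs, immature monocyte-like cells gave 9.22% (7.44% to 11.3%) and 13.8% (9.45% to 19.2%), with overlapping intervals. Mature monocyte-like cells gave 4.44% and 4.41% at that depth. After thinning to 1500 UMIs, 73.8% of DMSO and 65.0% of DAB cells had a UMI of none of the 10 genes. UMIs of 2 genes were found in 3.12% and 5.60%, and of 3 genes in 0.28% and 0.61%.

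Other genes of the pathway did not share one direction over all cells. Their counts stand beside 13.6% of all genes higher and 16.5% lower. Of 9 other dual specificity phosphatases, Dusp2 was higher (2.10 and 3.25 CPM, log2 ratio 0.63) and Dusp14 was lower (1.29 and 0.86 CPM, -0.59), with a list median of -0.10. Of 5 other Sprouty, Spred and Etv relatives, 4 had 20 UMIs, and Etv1 was higher (3.36 and 4.95 CPM, 0.56) and Etv3 lower (31.3 and 19.97 CPM, -0.65). A part of class make-up in these ratios was not tested. With DAB weighted to the DMSO class mix, Dusp14 was at -0.37 and Etv3 at -0.33, inside the limits. The Dusp14 value lay within its unweighted counting interval (-0.96 to -0.21). The Etv3 value lay outside its own (-0.72 to -0.57). Dusp2 was then at 0.50, Etv1 at 0.86 and Dusp1 at -0.52, all without an interval.

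Of 17 genes that ERK is known to induce early, 5 were higher and 6 lower, with a median log2 ratio of -0.14. Epha2, a receptor tyrosine kinase, was at 0.70 and 1.98 CPM (log2 ratio 1.49), the cell cycle gene Ccnd1 at 13.6 and 33.9 CPM (1.32) and the urokinase receptor gene Plaur at 408 and 789 CPM (0.95). The AP-1 genes Fosb, at 5.60 and 0.18 CPM (log2 ratio -4.98), and Fos, at 37.6 and 7.54 CPM (-2.32), were lower, as was Epha4, at 0.36 and 0.20 CPM (-0.85). Higher Dusp5 and Dusp6 thus stood beside lower Fos and Fosb in the same libraries.

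Of 16 genes of the Ras, RAF, MEK and ERK core, 13 lay between the limits. Hras was higher (33.6 and 58.0 CPM, log2 ratio 0.79), and the kinase gene Braf (43.3 and 27.0 CPM, -0.68) was lower. Of 6 Ras GTPase activating protein genes, Rasal3 (11.6 and 21.6 CPM, 0.89) and Dab2ip (7.96 and 12.02 CPM, 0.60) were higher and 0 lower. Among 9 receptor genes upstream, Flt3 (0.63 and 1.74 CPM, 1.47) and the GM-CSF receptor gene Csf2ra (103 and 168 CPM, 0.70) were higher. Il6st, the shared signalling chain of the IL6 receptor (25.7 and 6.37 CPM, -2.01), and Csf3r (60.3 and 29.4 CPM, -1.04), which marks granulocytes, were lower. With DAB weighted to the DMSO class mix, Flt3 was at 2.44, Csf2ra at 0.63, Il6st at -1.42 and Csf3r at -0.89, all without an interval.

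**Figure D4:**
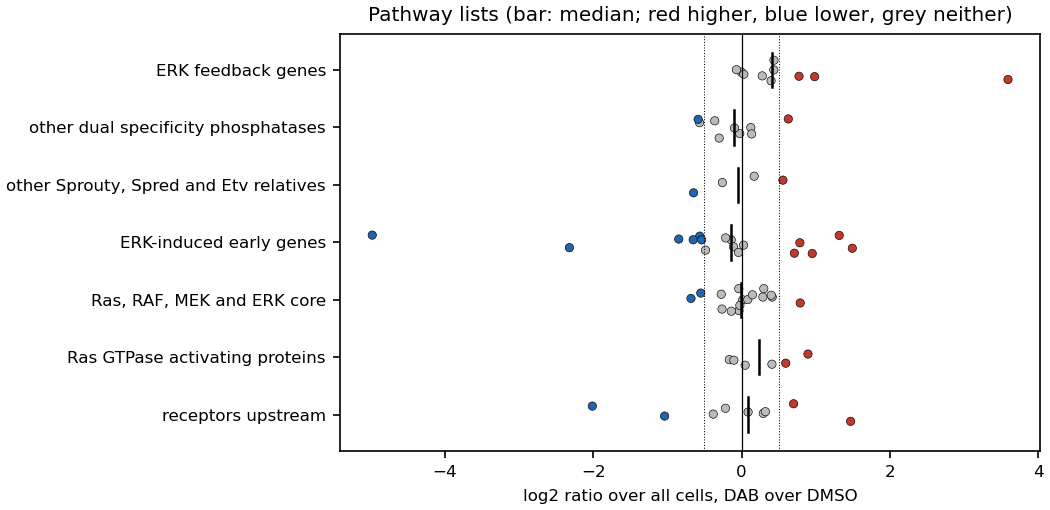
Log2 ratio of DAB over DMSO over all cells for the genes of each list with at least 20 UMIs, 1 point per gene, with a black bar at the list median and dotted lines at the fold of 0.5 in either direction. The ERK feedback genes have a median of 0.42 and no gene past the fold on the lower side, while the early genes range from -4.98 for Fosb to 1.49 for Epha2.

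The genes whose levels over the 48 cluster sums were most like each member were found among 5891 genes by the Pearson correlation of log2(CPM + 10). For Dusp6 they included Rap1b (0.87) and Klra2 (0.86), and for Dusp5 they were Map3k14 (0.83), Mob3a (0.78) and Mmd (0.76). For Dusp4 they were the immunoglobulin genes Igkc (0.85), Igkv6-15 (0.83) and Ighm (0.82). B cell-like cells were cluster U alone. The highest Dusp4 level of any other named class was 10.9 CPM, near the 10 CPM added before the log. For Etv5 they were Itgam, the gene of the CD11b integrin chain (0.90), Trem1 (0.89) and Nfam1 (0.89), and for Etv4 they were Gna15 (0.79), Pgf (0.78) and Mpp6 (0.77).

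Spred1 was most like Mgat4a (0.88), Spred2 (0.83) and Dync1h1 (0.83), and Spred2 like Nipa2 (0.87), Cmip (0.86) and Dync1h1 (0.85). This pair of Spred genes was the most alike of all 45 pairs of members. Spry2 was nearest to C1galt1 (0.69), Brwd1 (0.68) and Lpgat1 (0.67), and Spry1 to Fdx1 (0.58), Apex1 (0.56) and Paics (0.55). These correlations describe clusters that share 2 libraries, their depths and their long or short genes, and carry no test.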

How the data were processed

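Bone marrow MDSC were profiled as 1 DMSO and 1 DAB library, grouped by the labels. The deposited values are raw UMI counts per gene and barcode, which the authors made with Cell Ranger 7.0.0 on mm10, with no normalization (R 4.1.2 and Seurat 4.3.0 are named in the submitters' processing notes). The files held 9855 DMSO barcodes with 106792967 UMIs and 11631 DAB barcodes with 165506902 UMIs.

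Barcodes over 10% mitochondrial UMIs (55 and 89) were left out, and 768 and 1066 doublets were called against simulated doublets, at a rate that grew with the number of barcodes. Pearson residuals of 3000 variable genes, without the 10 genes and the pathway lists, were cell cycle regressed, aligned by mutual nearest neighbours and clustered with Leiden at 0.9 (Python 3.11.15, numpy 2.4.6, scipy 1.17.1, pandas 2.3.3, scikit-learn 1.9.0, igraph 0.11.9, leidenalg 0.10.2, matplotlib 3.10.9). A cluster was named where 3 or more of its markers, and most of those detected, had a log2 fold of 1 and its own markers led the 10 leading genes, a rule set after the clusters were seen. Of 15 marker lists, 11 named a cluster.

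UMIs were summed per library, class or cluster and divided by the summed total (CPM). Levels have exact Poisson intervals, ratios exact conditional binomial intervals and shares exact binomial intervals, at 95%. No test was run. A gene with a UMI sum under 20 was not counted. The rule for genes named was the 10 members, up to 3 genes past the fold in each direction per pathway list, and the 3 genes most like each member with at least 200 UMIs, among genes with at least 20 CPM. Of these, 2 genes are not reported here. Members and lists were chosen with earlier results of these data known. The interval code was tested on simulated data. Alternatives were other filters, scalings, clusterings, weights, folds, thinning depths and subtraction of free RNA.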

Additional observations from a re-analysis of the deposited data

Results flagged for a closer look

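Etv4 went in opposite directions in the 2 classes named as monocytes. The log2 ratio of DAB over DMSO was 1.72 in mature monocyte-like cells and -1.76 in immature monocyte-like cells. The difference was not tested, since there is 1 library per condition. The lower value rests on 4 DAB UMIs among 215 cells, and with coarser clusters it became 0.036.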

How the results depend on the processing

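Dusp5, Dusp6 and Spry4 kept their direction over all cells under all 7 alternatives, with log2 ratios of 0.68 to 0.80, 0.93 to 1.03 and 2.34 to 3.80. Giving every cell equal weight made 5 members higher in place of 3, with Dusp4 at 0.86 and Spred2 at 0.71, but these ratios have no interval. A log2 fold of 1 left 1. The share of all genes is not given for either setting, so these counts have no background beside them. With a minimum of 200 UMIs, 1772 of all genes were lower in place of 2701. Fewer genes are tested at that minimum and their number is not given, so the counts cannot be compared as shares. Lower pairs of gene and class were 4 in place of 2 when scaled by the median of ratios, which moved all ratios in intermediate granulocyte-like and mature PMN-like cells by 0.13 and 0.16. They were 2 in place of 1 in the 4 classes found without alignment of the libraries. The share of all genes is not given for these counts of pairs either. Without thinning all 10 members had a higher share of cells with a UMI in DAB in place of 3. The DAB cells were deeper, with a median of 9529.5 UMIs against 7523 in DMSO, so that count does not separate level from depth. The same count over all genes is not given, with or without thinning. Thinned to 3000 UMIs 1 member, Etv5, had a lower share. The Etv4 ratio in immature monocyte-like cells reversed to 0.036 at Leiden 0.5. Of the values for single genes, 180 stayed within their counting interval and 33 did not, and 1 more, Etv4 above, changed the sign of a value past the fold. Over all cells the ratios of Spry1, Spry2 and Etv4, not past the fold, changed sign as well, with ranges of -0.19 to 0.31, -0.21 to 0.27 and -0.61 to 0.45. Except where the alternative itself sets the count, the cause was not tested. No paired analysis was possible because there is 1 library per condition. Depth limits Spry1, Spry2, Spry4, Etv4 and Dusp4, the 5 members with the fewest UMIs.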
